A study of Mus musculus with 8 samples.

Results

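The protein kinase C genes were read in glomerular isolates of 4 Cd151+/+ and 4 Cd151-/- mice, all male, on the FVB/N background and 3 weeks of age. Cd151-/- mice carry a homozygous deletion of Cd151, which encodes a tetraspanin of the cell surface, and were compared with Cd151+/+ mice of the same strain to find the gene expression changes of early glomerular disease. The deletion is not restricted to a cell type, so every cell of the isolate carries it. Each mouse was hybridised to 1 array of the Illumina MouseRef-8 v1.1 BeadChip, a 1-colour platform whose beads each carry copies of 1 probe and give its signal as their average brightness. The members were all rows of the signal table whose gene symbol equalled 1 of 10 symbols of protein kinase C isoforms, among them Prkca, Prkcb, Prkcb1, Prkcd, Prkce, Prkch, Prkci, Prkcq and Prkcz. Of the 10 symbols 9 had a probe, and they carried 11 of the 25697 probes and were 9 of the 18120 gene symbols. No row is named Prkcb1, which is a synonym of Prkcb in the gene table used for names.

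Protein kinase C is a family of serine/threonine kinases that carry signals from receptors at the plasma membrane. When a receptor activates phospholipase C, membrane lipid is split into inositol trisphosphate, which releases calcium, and diacylglycerol, which stays in the membrane. The conventional isoforms (alpha and beta among them) need both calcium and diacylglycerol, the calcium-independent isoforms (delta, epsilon, eta and theta) need diacylglycerol alone, and the atypical isoforms (iota and zeta) need neither and work with the Par polarity proteins. In the kidney the conventional and calcium-independent isoforms are best known from diabetic glomerular disease, and the atypical isoforms from the polarity of podocytes, the epithelial cells whose foot processes cover the glomerular capillaries.

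Levels are given as normalised log2 signal, after background correction and quantile normalisation, and a probe was called detected on an array at a detection p-value of 0.05 or less. Differences are Cd151-/- minus Cd151+/+ on the log2 scale, so that a positive value is a higher level in Cd151-/- glomeruli. Cd151 itself was read by 3 probes, all detected in every Cd151+/+ mouse and in 0 of 4 Cd151-/- mice. The background was low on 4 arrays, those of mice 1 and 2 of the Cd151+/+ group and mice 3 and 4 of the Cd151-/- group, and high on the other 4, so both genotypes were spread evenly over the 2 array sets, a split taken from the arrays themselves and not from the labels. Between 11291 and 12359 probes were detected per array, and the median detected probe stood at 3.00 to 4.46 times the array background. Differences within each array set stand beside the results below. The 8 of 12 podocyte markers that were tested were all detected on every array, and Podxl, which encodes podocalyxin of the podocyte surface, was at 12.01 in Cd151+/+ and 11.70 in Cd151-/- mice. Markers of the proximal tubule were detected as well, with Slc34a1, a phosphate transporter of that segment, at 14.02 and 14.49. In RNA from a mixed tissue, fewer cells of a type and less RNA per cell cannot be told apart.

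Prkca, Prkcd, Prkce, Prkch and Prkcz were detected in all 8 mice, and these genes carried 6 of the 11 probes. Prkcb was detected in 3 of the 4 Cd151+/+ mice and in 0 of the 4 Cd151-/- mice, and Prkcq in 3 and 2 of them. The other 3 probes, the single one of Prkci and the third of Prkcz among them, were detected on none of the arrays and were not tested. In the limma test of the other 8 probes, 3 had a higher and 5 a lower level in Cd151-/- glomeruli, with a median difference of -0.22, beside -0.0073 over all 14967 probes tested. At an unadjusted p of 0.05 or less 2 of the 8 probes were called, Prkcb and Prkcq, both lower in Cd151-/- mice. Of all probes tested 4.30% were called, 1.69% as higher and 2.61% as lower. Prkcb passed the detection filter through Cd151+/+ arrays alone, so the count is a description and no support for a shift of the family. None of the 8 probes passed Benjamini-Hochberg adjustment, with adjusted p-values of 0.918 to 0.947 (limma), and 0.0334% of all probes tested did.

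**Figure D1:**
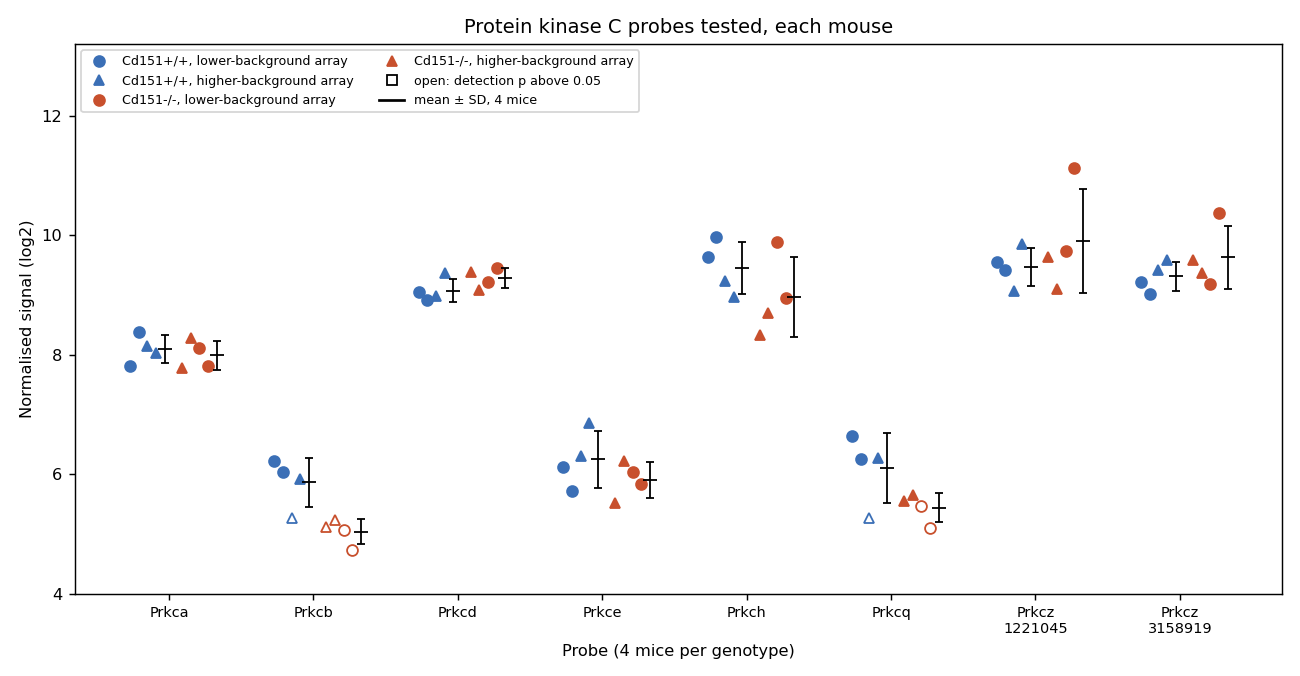
Normalised log2 signal (y axis) of the 8 tested protein kinase C probes (x axis) in each mouse, Cd151+/+ in blue and Cd151-/- in orange, with circles for lower-background and triangles for higher-background arrays, open symbols where the probe was not detected, and bars for the mean ± SD of 4 mice. The genotypes are separate for Prkcb alone, between 5.27 and 5.23, and Cd151-/- mouse 4 stands at 11.13 and 10.38 for the 2 Prkcz probes.

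Among the conventional isoforms, Prkcb was the one whose genotypes did not overlap. It encodes the beta isoform, known from B cell receptor signalling and from hyperglycaemic injury of the glomerulus. Its normalised log2 signal was 6.21, 6.04, 5.27 and 5.93 in Cd151+/+ mice 1 to 4. In Cd151-/- mice 1 to 4 it was 5.12, 5.23, 5.06 and 4.73. All 4 Cd151-/- mice were below all Cd151+/+ mice, but Cd151+/+ mouse 3, where the probe was also not detected (detection p-value of 0.0639), lay only just above Cd151-/- mouse 2 (detection p-value of 0.0501). The means were 5.86 ± 0.41 and 5.04 ± 0.21 (SD, n = 4). As no Cd151-/- array detected the probe, the difference is given as a bound, which depends on the background correction. On the scale used here the Cd151+/+ mean was 1.44-fold above the mean of the Cd151-/- limits. The limit of each Cd151-/- array was the higher of its lowest signal among detected probes and the probe's own signal. This bound compares means of 4 mice and leaves out their spread. Its Cd151+/+ mean holds mouse 3, where the probe was not detected. The limma difference of the measured values was -0.83 (SE 0.25, 95% interval -1.38 to -0.28), with an unadjusted p = 0.00673 and a Benjamini-Hochberg adjusted p = 0.918. With other background settings it was smaller, at -0.35 on deposited signals without background correction and -0.47 with an offset of 50. The exact permutation test gave p = 0.0286, the smallest that 70 relabelings of 4 mice against 4 can give, and among all probes tested 2.31% had groups that did not overlap, 1.46% with Cd151-/- mice lower. Within the lower-background arrays the difference was -1.23 and within the higher-background arrays -0.42. The study picked Prkcb from these same arrays, so the direction has no independent support here.

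The Prkcb probe lay close to background on every array. Before normalisation its signal was 1.34, 1.30, 1.20 and 1.57 times the array's background in Cd151+/+ mice 1 to 4. In Cd151-/- mice 1 and 2 it was 1.21 and 1.27 times, and in mice 3 and 4 it was lower still, down to 1.02 times in mouse 4. On this scale the genotypes overlapped, since Cd151-/- mice 1 and 2 were above Cd151+/+ mouse 3. They also overlapped when arrays were scaled to their 75th percentile in place of quantile normalisation (exact permutation p = 0.114). The unadjusted limma p of Prkcb was 0.00107 to 0.0403 in the 18 alternative settings in which it was tested. Where detection on all 4 arrays of a group was required, it was not tested. No setting brought it past Benjamini-Hochberg adjustment.

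Prkca, which encodes the widely expressed alpha isoform, differed little between the genotypes. Its level was 7.81, 8.38, 8.14 and 8.03 in Cd151+/+ mice 1 to 4 and 7.78, 8.27, 8.12 and 7.80 in Cd151-/- mice 1 to 4. The 2 ranges overlapped almost wholly. The difference of -0.10 (SE 0.22, 95% interval -0.58 to 0.38) was smaller than the SD among mice of either group (0.24 in both), with limma unadjusted p = 0.657 (Benjamini-Hochberg adjusted p = 0.947), and it was -0.14 and -0.06 within the lower- and higher-background arrays. All 19 alternative settings gave a difference below 0, from -0.19 to -0.0029.

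**Figure D2:**
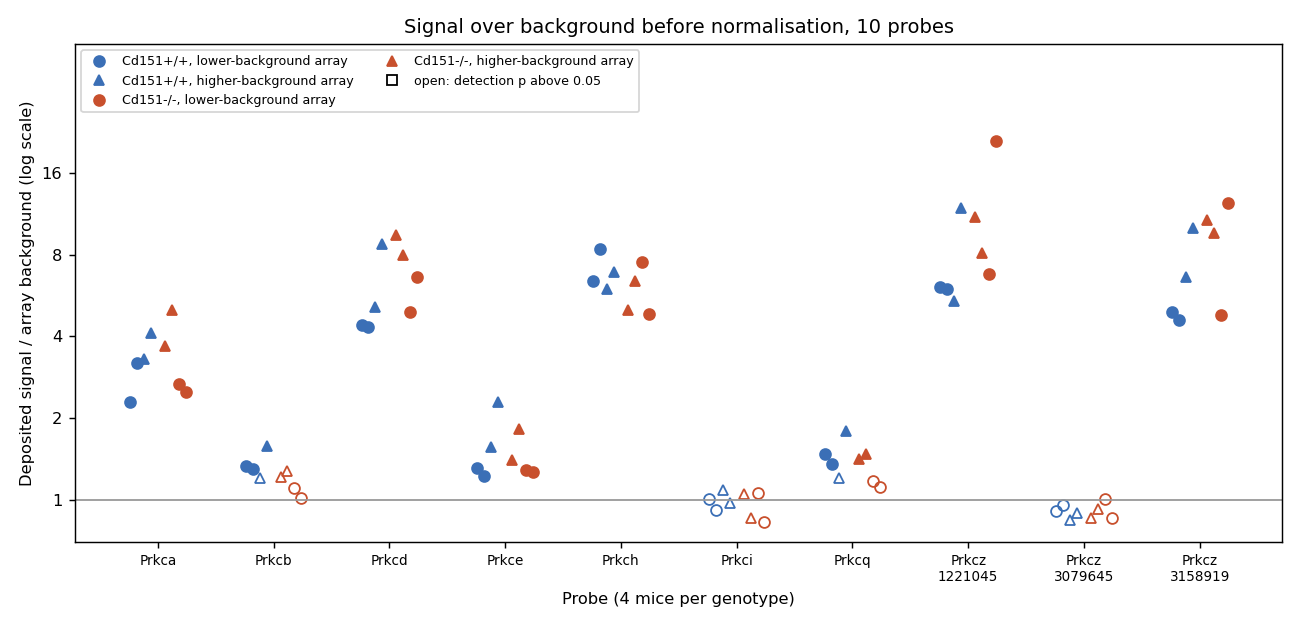
Deposited signal divided by the background of its array (y axis, log scale) for 10 of the 11 protein kinase C probes (x axis) in each mouse, before any normalisation, with the line at 1 for a signal equal to background and open symbols where the probe was not detected. Prkcb stands at 1.02 to 1.57 and Prkcq at 1.12 to 1.78 times background, whereas the 2 detected Prkcz probes reach 21.1 and 12.4 times.

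Of the calcium-independent isoforms, Prkcq gave the lowest p. It encodes the theta isoform, known for signalling at the T cell receptor. Its level was 6.64, 6.25, 5.26 and 6.27 in Cd151+/+ mice 1 to 4. In Cd151-/- mice 1 to 4 it was 5.56, 5.64, 5.46 and 5.09. Cd151+/+ mice 1, 2 and 4 lay above all Cd151-/- mice, and Cd151+/+ mouse 3 lay below 3 of them. These are the same Cd151+/+ mice that were high and low for Prkcb. The difference was -0.67 (SE 0.30, 95% interval -1.32 to -0.01), with limma unadjusted p = 0.0471 (Benjamini-Hochberg adjusted p = 0.918). The exact permutation test gave p = 0.114. It was -1.17 within the lower-background arrays and -0.16 within the higher-background arrays, and the unadjusted call was lost in 14 of 18 alternative settings, with p up to 0.142. The Prkcq probe stood at 1.12 to 1.78 times the background.

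Markers of lymphocytes were given beside Prkcb and Prkcq because both kinases are known from these cells. Of 10 T cell markers 7 were tested and all 7 were lower in Cd151-/- glomeruli, 1 of them at an unadjusted p of 0.05. This was Cd3d, a chain of the T cell receptor complex, at 5.93 in Cd151+/+ and 5.15 in Cd151-/- mice (limma unadjusted p = 0.00941, Benjamini-Hochberg adjusted p = 0.918), whose genotypes did not overlap. The summed signal of the 7 markers was 348 to 445 in Cd151+/+ and 249 to 355 in Cd151-/- mice, and Cd4, Cd8a and Cd28 were detected on none of the arrays. The order of the mice differed from that of Prkcb: Cd151+/+ mouse 1, the highest of all 8 for Prkcb and Prkcq, had the lowest T cell sum of the 4 Cd151+/+ mice. Of 10 B cell markers 4 were tested, with sums of 118 to 188 and 101 to 175, and Cd79a, Blk, Pax5, Cd22 and Cr2 were detected on none of the arrays. Markers of red blood cells were also lower in Cd151-/- mice, though Hbb-b1 differed by only -0.02, and with array weights they were 1 higher and 4 lower. Of 8 erythroid markers 5 were tested and all 5 were lower in Cd151-/- mice, 3 of them, Alas2, Hba-a1 and Eraf, at an unadjusted limma p of 0.05, with a median difference of -0.69. Their sum was 38233 to 50269 in Cd151+/+ and 17952 to 37555 in Cd151-/- mice, so that the genotypes did not overlap (exact permutation p = 0.0286), and Epb42 was detected on none of the arrays. The part of lymphocytes and of other blood cells in the Prkcb and Prkcq values was not tested.

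Prkch encodes the eta isoform, known from epithelia. Its level was 9.63, 9.96, 9.24 and 8.96 in Cd151+/+ mice 1 to 4 and 8.33, 8.69, 9.89 and 8.94 in Cd151-/- mice 1 to 4. Cd151-/- mice 1, 2 and 4 lay below all Cd151+/+ mice, and Cd151-/- mouse 3 was the second highest of all 8. The difference was -0.49 (SE 0.35, 95% interval -1.25 to 0.27), with limma unadjusted p = 0.186 (Benjamini-Hochberg adjusted p = 0.918), and was -0.38 and -0.59 within the lower- and higher-background arrays. It was past an unadjusted p of 0.05 without Cd151-/- mouse 3 (-0.79, limma unadjusted p = 0.0223) and with array weights (-1.004, limma unadjusted p = 0.00521, adjusted p = 0.0885), and not in the other 17 alternative settings. With array weights 4816 of all 14967 probes tested were past that p. Without Cd151-/- mouse 1 it was -0.28, and without Cd151+/+ mouse 2 -0.32.

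Prkch followed the summed signal of glomerular endothelial markers across the mice, though not each marker by itself. The 5 mice with the highest Prkch, Cd151+/+ mouse 2, Cd151-/- mouse 3 and Cd151+/+ mice 1, 3 and 4, were also the 5 with the highest summed endothelial signal, in the same order. Of these, Cd151+/+ mice 1 and 2 and Cd151-/- mouse 3 are on lower-background arrays. By single marker, Ehd3, Tie1, Cdh5, Eng and Kdr were highest in Cd151+/+ mouse 2, and Plvap and Pecam1 in Cd151-/- mouse 3. Tek was highest in Cd151+/+ mouse 4, and Flt1 and Emcn in Cd151-/- mouse 2. All 10 endothelial markers were tested and 9 were lower in Cd151-/- mice, 0 of them at an unadjusted p of 0.05, with a median difference of -0.39. Their sum was 41519 to 53697 in Cd151+/+ and 27423 to 52926 in Cd151-/- mice. The 1 marker that was higher in Cd151-/- mice was Flt1, detected on every array (0.18, limma unadjusted p = 0.679). Kdr, a receptor for vascular endothelial growth factor, was close to the detection limit, at 5.30 and 5.01 (limma unadjusted p = 0.289). It was detected in 2 Cd151+/+ mice and 0 Cd151-/- mice. Prkch was lowest in Cd151-/- mouse 1, and the endothelial sum in Cd151-/- mouse 4. The part of endothelial RNA in the Prkch difference was not tested.

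Prkcd encodes the delta isoform, which is widely expressed and known from apoptosis. Its level was 9.05, 8.91, 8.98 and 9.36 in Cd151+/+ mice 1 to 4 and 9.39, 9.08, 9.22 and 9.44 in Cd151-/- mice 1 to 4. The lowest 3 values were those of Cd151+/+ mice 1, 2 and 3, while Cd151+/+ mouse 4 was among the highest 3. The difference was 0.21 (SE 0.20, 95% interval -0.24 to 0.66), with limma unadjusted p = 0.328 (Benjamini-Hochberg adjusted p = 0.918) and an exact permutation p = 0.143, and was 0.35 and 0.06 within the lower- and higher-background arrays.

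Prkce, which encodes the epsilon isoform, known from cardiac protection and pain signalling, was detected in every mouse but close to background, at 1.22 to 2.28 times. Its level was 6.11, 5.72, 6.30 and 6.85 in Cd151+/+ mice 1 to 4 and 5.52, 6.21, 6.03 and 5.84 in Cd151-/- mice 1 to 4. Cd151+/+ mice 3 and 4 were the highest 2, and the other values mixed. The difference was -0.34 (SE 0.27, 95% interval -0.95 to 0.26), with limma unadjusted p = 0.234 (Benjamini-Hochberg adjusted p = 0.918). Within the higher-background arrays it was -0.71, and within the lower-background arrays 0.02. Without Cd151+/+ mouse 4 it was -0.14, without Cd151-/- mouse 1 -0.21, and without Cd151+/+ mouse 2 -0.53.

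**Figure D3:**
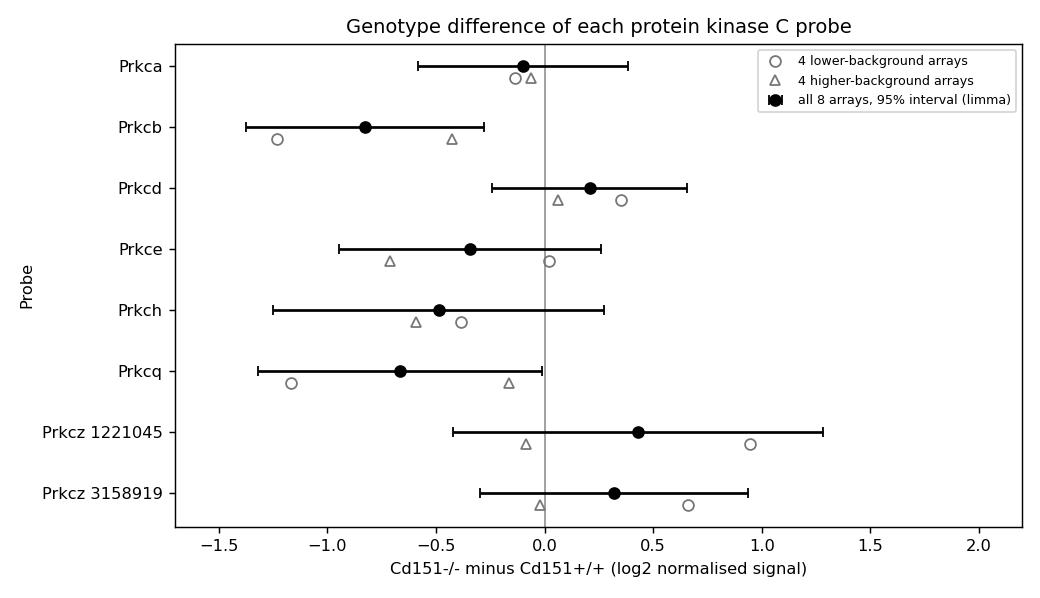
Difference between the genotypes (x axis, Cd151-/- minus Cd151+/+, log2 normalised signal) for each tested protein kinase C probe (y axis), with the limma estimate and its 95% interval in black and the differences within the 4 lower-background arrays (open circles) and the 4 higher-background arrays (open triangles). The intervals of Prkcb and Prkcq lie below 0, and for both the lower-background arrays give the larger difference, at -1.23 and -1.17.

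Of the atypical isoforms, Prkcz was read by 3 probes, of which 2 were detected in every mouse and 1 on none of the arrays. It encodes the zeta isoform, a partner of Par3 and Par6 in cell polarity. At probe ILMN_1221045 its level was 9.55, 9.42, 9.06 and 9.84 in Cd151+/+ mice 1 to 4 and 9.63, 9.10, 9.73 and 11.13 in Cd151-/- mice 1 to 4. At probe ILMN_3158919 it was 9.22, 9.01, 9.42 and 9.58 in Cd151+/+ mice and 9.58, 9.37, 9.18 and 10.38 in Cd151-/- mice. Both probes put Cd151-/- mouse 4 above all others, and the other 3 Cd151-/- mice lay within the Cd151+/+ range, except that mouse 1 stood at its upper end for ILMN_3158919.

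The difference of Prkcz was 0.43 at ILMN_1221045 (SE 0.39, 95% interval -0.42 to 1.28, limma unadjusted p = 0.291) and 0.32 at ILMN_3158919 (SE 0.28, 95% interval -0.30 to 0.94, limma unadjusted p = 0.278), with a Benjamini-Hochberg adjusted p = 0.918 for both. Without Cd151-/- mouse 4 these differences were 0.0185 and 0.0699. Within the lower-background arrays, which hold that mouse, they were 0.95 and 0.66, and within the higher-background arrays -0.09 and -0.02. The third probe, ILMN_3079645, stood at 0.838 to 1.01 times the background. Prkci, which encodes the iota isoform, needed for the podocyte foot process, was at most at 1.09 times the background on its single probe and was detected in none of the 8 mice, which says nothing of a level below the array's limit.

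Prkcd and 1 of the 2 detected Prkcz probes were highest in the 3 mice with the most proximal tubule signal. Cd151-/- mouse 4, Cd151-/- mouse 1 and Cd151+/+ mouse 4 had the 3 highest tubule sums, and in the same order the 3 highest levels of Prkcd and of Prkcz at ILMN_3158919. At ILMN_1221045 Cd151-/- mouse 4 and Cd151+/+ mouse 4 were the highest 2 and Cd151-/- mouse 3 came next, which ranked 6 by tubule sum. Cd151+/+ mouse 3 ranked 4 by tubule sum and 4 at ILMN_3158919, but 7 for Prkcd and 8 at ILMN_1221045. Of 10 proximal tubule markers 9 were tested and all 9 were higher in Cd151-/- mice, with a median difference of 0.61, 1 of them at an unadjusted p of 0.05. This was Kap, the kidney androgen-regulated protein, at 7.51 in Cd151+/+ and 8.90 in Cd151-/- mice (limma unadjusted p = 0.0337, Benjamini-Hochberg adjusted p = 0.918). For each of the 9 markers the difference was larger within the lower-background arrays. Within the higher-background arrays the differences ran from -0.34 for Slc5a2 to 0.85 for Kap, with Fbp1 at -0.03. Within the lower-background arrays Slc5a2 was at 1.44, Kap at 1.91 and Fbp1 at 1.30. The tubule sum was 21480 to 63237 in Cd151+/+ and 43128 to 79574 in Cd151-/- mice, so the genotypes overlapped, and Lrp2 and Pck1 were each detected in 0 of 4 and 2 of 4 mice. The part of tubule RNA in the Prkcd and Prkcz values was not tested.

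**Figure D4:**
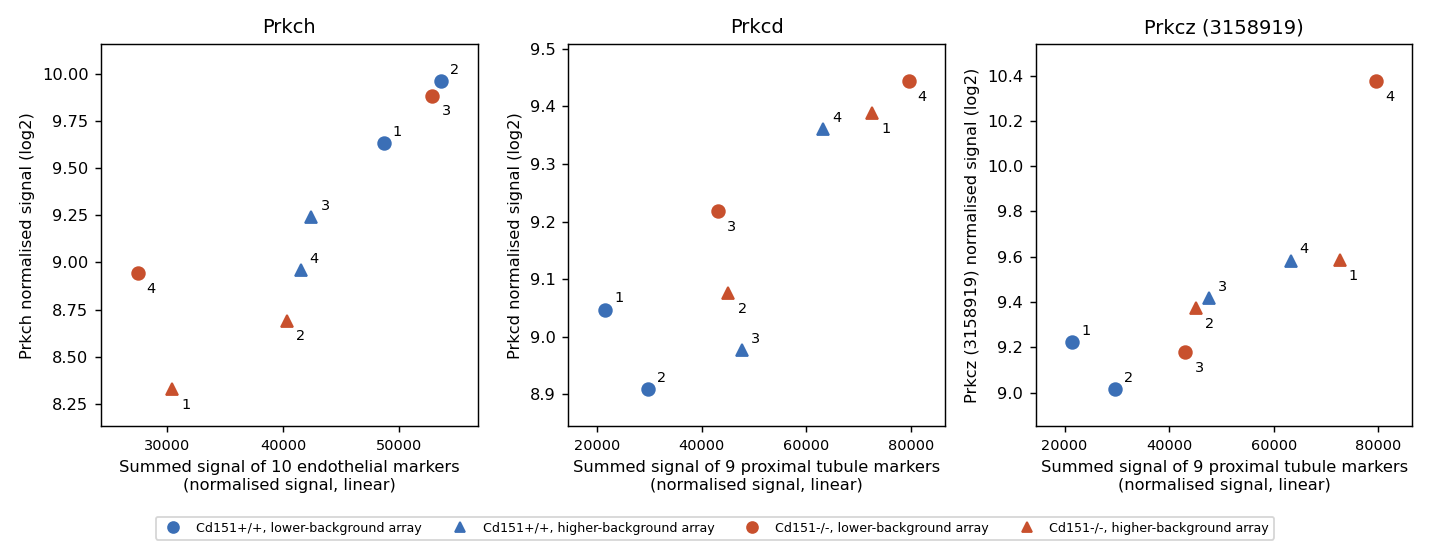
Normalised log2 signal (y axes) of Prkch against the summed signal of 10 glomerular endothelial markers, and of Prkcd and Prkcz (ILMN_3158919) against that of 9 proximal tubule markers (x axes, normalised signal on a linear scale), 1 point per mouse with its number, colours and symbols for genotype and array set. Prkch is highest in Cd151+/+ mouse 2 and Cd151-/- mouse 3, which have the 2 largest endothelial sums, and both Prkcd and Prkcz are highest in Cd151-/- mouse 4, which has the largest tubule sum of 79574.

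The probes most like each isoform over the 8 arrays were looked for among the 9495 probes detected in every mouse, by Pearson's r, as a description. The points share the 8 arrays, with their 2 levels of background. Prkch was most like D1Bwg0491e (r = 0.993) and Arhgef15, a nucleotide exchange factor known from endothelium (r = 0.989). Prkcd was most like Enpp1, an ectonucleotidase (r = 0.975), and Pi4k2b, a phosphatidylinositol kinase (r = 0.968). Prkcz at ILMN_1221045 was most like 1110028A07Rik (r = 0.996) and BC040758 (r = 0.992). Cd151-/- mouse 4 stood at 11.13 for this probe and every other mouse at 9.84 or lower, and r without that mouse was not computed. The likeness was looser for Prkca, with Top1mt, the mitochondrial topoisomerase (r = 0.931), and Sfpq, a splicing factor (r = 0.910). For Prkce it was Rab4a, a GTPase of recycling endosomes (r = 0.924), and Dusp7, a phosphatase of MAP kinases (r = 0.909).

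Around the isoforms stand the genes that make, remove, answer or follow diacylglycerol, in 7 lists of 79 genes. Of these 70 had a probe and 54 were tested, 26 of them with a higher and 28 with a lower level in Cd151-/- mice and a median difference of -0.03. At an unadjusted p of 0.05 there were 4 genes, 7.41% of those tested, beside 4.30% of all probes, and 0 passed Benjamini-Hochberg adjustment in limma. The 4 were Chn2, which was higher, and Plcd3, Plce1 and Nrgn, which were lower. The genotypes of the last 3 overlapped (exact permutation p = 0.0857, 0.0857 and 0.114), and each lost the unadjusted call in 7 of 19 alternative settings, with p up to 0.115, 0.117 and 0.111. These include, for all 3 genes, the settings without Cd151+/+ mouse 1 or 2 and without Cd151-/- mouse 1 or 4.

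Upstream of the kinases, phospholipase C makes diacylglycerol, and 9 of 15 listed members were tested, 3 higher and 6 lower, against 1 and 8 with 75th percentile scaling and 5 and 4 with array weights. Plcd3, a delta-type enzyme, was 8.79, 8.30, 7.54 and 7.72 in Cd151+/+ mice 1 to 4 and 6.95, 7.36, 7.86 and 7.16 in Cd151-/- mice 1 to 4. Cd151-/- mice 1, 2 and 4 lay below all Cd151+/+ mice and Cd151-/- mouse 3 above 2 of them, for a difference of -0.75 (SE 0.31, limma unadjusted p = 0.0345, Benjamini-Hochberg adjusted p = 0.918). Plce1, the epsilon enzyme, whose loss causes nephrotic syndrome and which is also on the podocyte list, was 8.98, 8.95, 8.49 and 8.43 in Cd151+/+ mice and 7.90, 8.31, 8.54 and 7.85 in Cd151-/- mice. Cd151-/- mouse 3 again lay within the Cd151+/+ range, and the difference was -0.56 (SE 0.24, limma unadjusted p = 0.0414, adjusted p = 0.918). All 8 podocyte markers tested were lower in Cd151-/- mice, with a median difference of -0.21 and sums of 108761 to 114749 in Cd151+/+ and 94620 to 115812 in Cd151-/- mice, and the part of podocyte RNA in the Plce1 value was not tested. Plcl2, a phospholipase C-like protein, differed by 0.25 (limma unadjusted p = 0.314). The Gq proteins that switch on phospholipase C-beta were all higher in the 3 of 4 genes tested, and none was called. Gna14 differed by 1.07 (SE 0.50, limma unadjusted p = 0.0570) and was detected in 2 Cd151+/+ mice and in all 4 Cd151-/- mice, Gnaq by 0.31 and Gna11 by 0.07.

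Diacylglycerol kinases end the signal by phosphorylating diacylglycerol, and 6 of 10 were tested, 1 higher and 5 lower, none of them called. Dgkz differed by -0.48 (limma unadjusted p = 0.194), Dgka by -0.37 (limma unadjusted p = 0.178) and Dgkb by -0.34 (limma unadjusted p = 0.369). Of the receptors that bind diacylglycerol without being protein kinase C, 4 of 10 were tested, 3 higher and 1 lower. Chn2, which encodes beta-chimaerin, a protein that turns off Rac, was 5.93, 5.13, 5.71 and 6.57 in Cd151+/+ mice 1 to 4 and 7.15, 6.92, 7.10 and 6.84 in Cd151-/- mice 1 to 4. All 4 Cd151-/- mice lay above all Cd151+/+ mice, and it was detected in 3 of 4 and 4 of 4. The difference was 1.17 (SE 0.29, limma unadjusted p = 0.00198, Benjamini-Hochberg adjusted p = 0.918), with an exact permutation p = 0.0286, where 0.855% of all probes tested had Cd151-/- mice wholly above. It was 1.44 and 0.90 within the lower- and higher-background arrays, and past an unadjusted p of 0.05 in all 19 alternative settings (p up to 0.00880). The study already listed Chn2 as up-regulated from these same arrays, so its direction has no independent support here. Rasgrp3, a Ras activator, differed by 0.38 (limma unadjusted p = 0.570) and Unc13b, a vesicle priming factor, by -0.20 (limma unadjusted p = 0.438).

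The kinases related to protein kinase C, by a shared domain or by acting before or after it, were tested for 6 of 7 genes. Of these 2 were higher and 4 lower (3 and 3 with array weights), none called. Pdpk1, the kinase that phosphorylates the activation loop of protein kinase C, differed by -0.35 (limma unadjusted p = 0.495), Prkd2, a protein kinase D downstream of it, by -0.18 (limma unadjusted p = 0.570) and Prkd3, listed on the array as Prkcn, by 0.16 (limma unadjusted p = 0.598). The other tested probe of Pdpk1 differed in the opposite direction. The scaffolds and adaptors that place the kinases in the cell were tested for 13 of 15 genes, 8 higher and 5 lower, which turned to 5 higher and 8 lower with 75th percentile scaling and to 4 and 9 with array weights. Cavin2, a protein of caveolae that binds protein kinase C, differed by -0.45 (limma unadjusted p = 0.0698). Pard6g, of the Par complex with the atypical isoforms, differed by -0.40 (limma unadjusted p = 0.307), and Zmynd8 by -0.36 (limma unadjusted p = 0.191).

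Of the substrates 13 of 18 were tested, 6 higher and 7 lower, against 5 and 8 with 75th percentile scaling and 4 and 9 with array weights. Nrgn, which encodes neurogranin, a calmodulin-binding protein whose site is phosphorylated by protein kinase C, was 8.16, 8.61, 7.26 and 7.64 in Cd151+/+ mice 1 to 4 and 6.80, 7.11, 7.79 and 6.71 in Cd151-/- mice 1 to 4. As for Plcd3 and Plce1, Cd151-/- mouse 3 lay within the Cd151+/+ range and the other 3 below it. The difference was -0.82 (SE 0.34, limma unadjusted p = 0.0343, Benjamini-Hochberg adjusted p = 0.918). Add2, an adducin of the membrane skeleton, differed by -0.54 (limma unadjusted p = 0.0671) and was detected in 1 of 4 and 0 of 4 mice. Vasp, a regulator of actin filaments, differed by 0.29 (limma unadjusted p = 0.181).

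**Figure D5:**
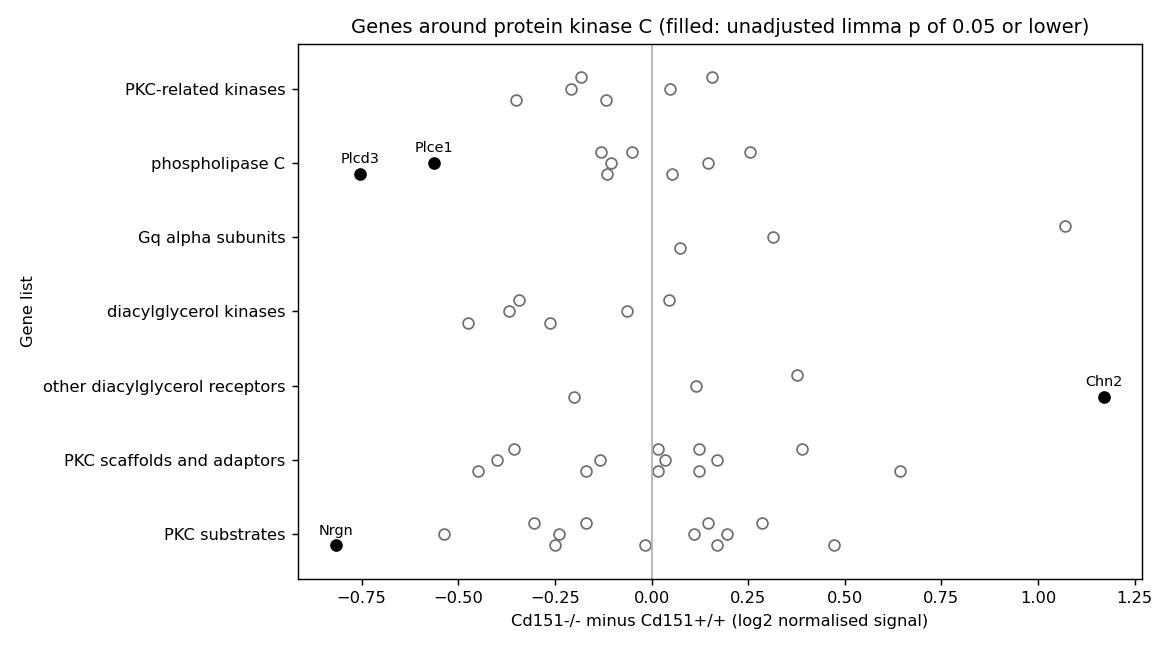
Difference between the genotypes (x axis, Cd151-/- minus Cd151+/+, log2 normalised signal) of the 54 tested genes of 7 lists around protein kinase C (y axis), 1 point per gene, filled and named at an unadjusted limma p of 0.05 or less. Chn2 stands at 1.17 to the right and Nrgn, Plcd3 and Plce1 at -0.82, -0.75 and -0.56 to the left, and most other genes lie between -0.5 and 0.5.

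Prkcb and Cd151 are on the same chromosome, within 20 Mb but not within 10 Mb of each other in the gene table, and the other members described here are on other chromosomes.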

How the data were processed

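Glomeruli were isolated with magnetic beads, and the RNA was amplified, labelled with biotin and hybridised, 1 mouse per array. The authors deposited a table of signal intensity per probe, neither background-subtracted nor normalised, and beside it a detection p-value, the share of negative-control probes at least as bright, in steps of 1 over 798. In R 4.3.3 with limma 3.58.1, neqc inferred the background from the detection p-values, corrected it (offset 16) and quantile-normalised the arrays to log2 values. The genotypes were fitted with lmFit and eBayes over the 14967 probes detected on any array, with Benjamini-Hochberg adjustment over them, and single probes were also compared by a two-sided exact permutation test. The procedure was tested on simulated data.

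All members but 1, which is not reported here, are named, and of each pathway list the 3 genes with the lowest unadjusted p. A gene with several probes is represented by the brightest. In the pathway lists other tested probes went the opposite way for Pdpk1, Pick1, Pard3, Wwc1, Pkp2, Afap1 and Mlp, so counts by direction depend on this choice. The members and lists were chosen with earlier results of these data known. Gene names and neighbours come from RefSeq assembly GRCm38.p6, and no coordinates are given. The depth is limited by signal over background and by the number of arrays. Probe and protein sequences were not used here. The alternatives were other background corrections, offsets, normalisations, detection filters and variance models, blocks for mouse number and array set, and each mouse left out.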

Additional observations from a re-analysis of the deposited data

How the results depend on the processing

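In 19 alternative settings none of the protein kinase C probes passed Benjamini-Hochberg adjustment. At an unadjusted p of 0.05 the 2 member probes became 1 with deposited signals without normexp, an offset of 50, cubic spline normalisation, scaling to the 75th percentile, a trended and robust variance or a plain equal-variance test, 3 with array weights, 0 where detection on all 4 arrays of a group was required, which removes Prkcb and Prkcq, and 1 to 2 with each mouse left out. Of 150 member differences in these settings 134 kept direction and side of the threshold, 14 lost the unadjusted call, all for Prkcq, 2 gained it, both for Prkch, and 0 turned direction. Over all probes the 643 at that p became 389 with the 75th percentile, 1094 without a detection filter, 4816 with array weights, 1690 with the array set as a block and 339 to 1391 with each mouse left out. Past adjustment the 5 became 3 with the equal-variance test, 8 with the array set and 4 to 6 with each mouse left out. The cause was not tested.

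The labels do not say that mouse numbers pair these mice, which are different animals. Same-number correlations of deviations were -0.58, -0.40, -0.53 and -0.01. Mice of the same number lie in opposite array sets, so these correlations cannot decide whether the mice were paired. With mouse number as a replicate block, 1 member probe, 420 probes in all and 1 pathway gene were at an unadjusted p of 0.05, and the block changed no other call among the members.

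The pathway genes and marker lists were recomputed in a choice made after the data were seen. The 4 pathway genes became 19 with array weights, 9 with the array set as a block and 1 to 7 with each mouse left out. The T cell, B cell, podocyte, endothelial and proximal tubule markers and the Gq genes split by direction in the same numbers under quantile normalisation, cubic spline and 75th percentile scaling, while with array weights the podocyte markers were 3 higher and 5 lower, the B cell markers 2 and 2 and the endothelial markers 2 and 8. The phospholipase C, scaffold and substrate lists also split otherwise with 75th percentile scaling. Direction turned for Pdpk1 with array weights (0.31). With each mouse left out it also turned at an end of the range for Pdpk1 (-0.64 to 0.0185), Gna11 (-8e-04 to 0.16), Rasgrp3 (-0.0713 to 0.85) and Prkd3 (-0.0073 to 0.30). The signal over background limits Prkcb, Prkcq and Prkce, and the number of arrays limits all values.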
